A study of Mus musculus with 6 samples.

Results

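Expression of p53 target genes was followed in mouse pro-B cells without Pax5, the factor that commits them to the B lineage, after infection with a retrovirus that carries EBF, a factor of early B cell development, or with a control retrovirus. The list held 10 genes, namely Trp53, Mdm2, Ccng1, Sesn1, Trp53inp1, Perp, Fas, Phlda3, Zmat3 and Plk2. Every probe set that the platform's gene table gives to exactly one of these symbols was kept, and each was read separately. This gave 18 probe sets for 9 of the 10 genes, out of 45037 probe sets on the array, and Trp53 was not analysed here because no probe set carried its symbol. The EBF group held 3 arrays of Pax5-/- pro-B cells infected with Mig-EBF. The control group held 3 arrays of Pax5-/- pro-B cells infected with MigR1. All cells of both groups lacked Pax5, grew on ST2 bone marrow stromal cells with 5 ng/ml IL-7 and were sorted for GFP 2 days after infection. The strain and age of the donor mice, and whether the replicates were separate cultures, are not stated in the labels, so p-values measure only the spread between these arrays, which may be technical. The number after a group's name, as in EBF 1 or control 3, is the replicate number of the labels.

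The transcription factor p53 is kept at a low level by the ubiquitin ligase Mdm2 and accumulates after DNA damage and other stress. It then activates genes that halt the cell cycle, repair DNA, restrain growth signals or start apoptosis, and it activates Mdm2 itself, which closes a feedback loop. In early B cells, which cut and rejoin their own DNA to build antigen receptor genes and divide under IL-7, p53 is known for removing cells with unrepaired breaks.

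Array medians of the deposited intensities were close, from 439 to 445 in the EBF group and from 424 to 451 in the control group. Markers of the labelled cell type were measured at 12 probe sets, of which Vpreb1, a surrogate light chain gene of pro-B cells, averaged 19550 in EBF arrays and 18553 in control arrays. The dimmest was 1 of the probe sets of Igll1, another surrogate light chain gene, at 220 in EBF arrays and 215 in control arrays. By limma 1 of the 12 rose, that of Vpreb3 (log2 0.67; adjusted p = 0.0093), and 2 fell, both of the DNA polymerase gene Dntt (-0.87 and -0.70; adjusted p = 0.0075 and 0.0226), and their part in the values below was not tested. The summed level of the NK cell markers ran from 1282 to 1394 in the EBF group and from 1287 to 1443 in the control group. The summed level of ST2 stromal markers ran from 13694 to 19838 in the EBF group and from 14785 to 24992 in the control group, and 0 of their 18 probe sets passed the test. Of the 8 myeloid marker probe sets 1 fell, that of the lysozyme gene Lyz2 (log2 -0.48), and of 13 T cell marker probe sets 0 passed. The part of the NK, stromal, myeloid and T cells in the values below was not tested. As a measure of background, 27 spike-in probe sets for Bacillus genes had array medians between 97.6 and 108 and a highest value of 410. All 18 p53 target probe sets lay above the Bacillus median on all 6 arrays, while those of Perp and Fas and 1 of Sesn1 lay under the array's highest Bacillus control throughout, so these 3 were dim. Mdm2 1457929_at and Plk2 1443780_at lay above that control on only 1 of the 6 arrays, and Zmat3 on only 2. These also lay near background.

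RefSeq promoter sequences were at hand for 6 of the 9 measured genes, in 7 entries because Sesn1 has more than 1 start site. Perp, Trp53inp1 and Zmat3 had no entry. The 7 entries were searched for the p53 half-site, a consensus of 10 bases whose reverse complement is the same consensus. The search covered the 250 bases before the gene start, taken as the start site of each entry. Half-sites stood in 3 entries, 1 in each, and these are shown because they belong to the 3 genes to which the values below return most often. Capitals mark the half-site, the sequences run 5′ to 3′ on the gene's strand, and the build is GRCm38.p6. The Ccng1 window is chr11:40755287-40755536 on the minus strand, the Mdm2 window is chr10:117710759-117711008 on the minus strand, and the Sesn1 window, before its downstream start site, is chr10:41887189-41887438 on the plus strand.
Ccng1: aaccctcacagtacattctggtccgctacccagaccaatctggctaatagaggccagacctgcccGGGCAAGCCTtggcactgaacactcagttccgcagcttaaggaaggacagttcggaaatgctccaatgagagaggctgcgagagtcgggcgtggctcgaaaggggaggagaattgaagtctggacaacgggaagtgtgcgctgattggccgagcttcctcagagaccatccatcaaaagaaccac
Mdm2: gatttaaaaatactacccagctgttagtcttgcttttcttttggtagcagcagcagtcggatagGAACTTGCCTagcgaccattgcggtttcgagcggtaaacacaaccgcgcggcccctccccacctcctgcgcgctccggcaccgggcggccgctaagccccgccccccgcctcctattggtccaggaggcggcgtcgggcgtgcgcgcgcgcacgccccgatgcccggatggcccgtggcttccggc
Sesn1: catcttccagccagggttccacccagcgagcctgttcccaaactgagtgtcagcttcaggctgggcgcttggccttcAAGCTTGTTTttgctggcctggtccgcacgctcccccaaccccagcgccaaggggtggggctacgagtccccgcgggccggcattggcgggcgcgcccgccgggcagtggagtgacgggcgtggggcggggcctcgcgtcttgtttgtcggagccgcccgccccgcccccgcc
The Ccng1 half-site, GGGCAAGCCT, began 185 bases before the gene start, the Mdm2 half-site, GAACTTGCCT, 186 bases before it, and the Sesn1 half-site, AAGCTTGTTT, 173 bases before it. Of all 32851 promoter entries 7.13% held at least 1 half-site in the same window. A pair of half-sites at most 13 bases apart, the form of a full p53 site, stood in 0 of the 7 entries and in 0.0639% of all entries. The other windows, of Fas, Phlda3, Plk2 and the upstream Sesn1 start, had no match to these letters. The RefSeq Ccng1 gene reaches to 40755309, inside the printed window, so the start site of that entry is not the outermost. Sequence outside these windows was not searched. The capitals mark only a match to the consensus, and binding of p53 there was not measured.

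With group alone in the fit, no p53 target probe set passed the test between EBF and control cells. By limma, 0 of 18 were called at an adjusted p of 0.05, where 0.875% of all probe sets were called, and the smallest adjusted p was 0.119. At an unadjusted p under 0.05 there were 5 of 18, with 18.9% of all probe sets under that limit. The log2 differences, EBF minus control, ran from -0.38 at Sesn1 to 0.31 at Plk2, on the scale of log2(intensity + 32). Their median was -0.07 against 0.02 over all probe sets, with 7 above 0 and 11 below. All 18 limma 95% intervals lay between -0.80 and 0.57, unadjusted and taken one probe set at a time. None reached a 2-fold change on this scale. The intervals bound only the intensity as measured, background included, and the scale understates changes at dim probe sets. At those they do not limit the change in RNA. Fewer cells that express a gene and less RNA of it per cell cannot be told apart in these bulk samples.

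**Figure D1:**
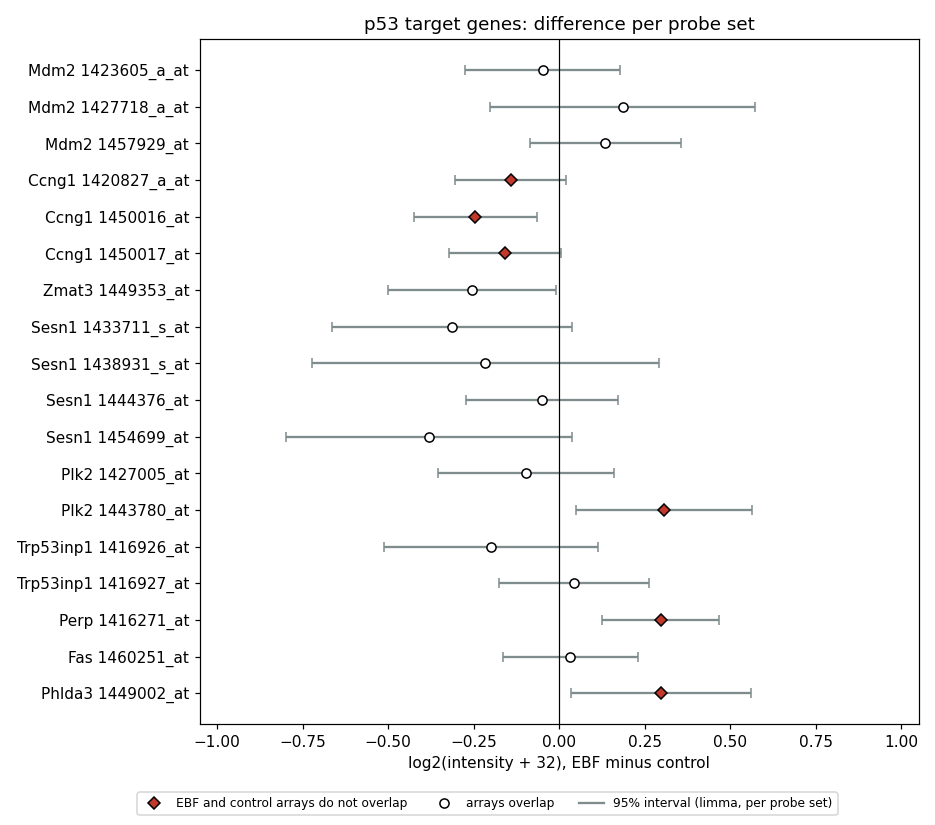
Difference between EBF and control arrays for each of the 18 probe sets, as log2(intensity + 32), with limma's unadjusted 95% interval. Red diamonds mark the 6 probe sets whose EBF and control arrays did not overlap, with Ccng1 on the lower side and Perp, Phlda3 and 1 Plk2 probe set on the higher side.

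The EBF and control arrays did not overlap at 6 of the 18 probe sets, 3 with EBF higher and 3 with EBF lower. Of all probe sets, 15.5% were higher without overlap and 7.67% lower without overlap, which makes 23.2% in all. The 3 lower ones were all of Ccng1, and the 3 higher ones were those of Perp, Phlda3 and 1 of the Plk2 probe sets. With the replicate number of the labels as a block in the fit, 1 of the 18 was called, Perp, where 7.28% of all probe sets were called.

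Among the genes that act back on p53, Ccng1 was the most even. Ccng1 encodes cyclin G1, a p53 target that brings the phosphatase PP2A to Mdm2. Its probe set 1420827_a_at read 2751, 2723 and 2728 in EBF 1 to 3, against 3211, 2895 and 2962 in control 1 to 3. Probe set 1450016_at read 1970, 1753 and 1730 in the EBF arrays, against 2192, 2217 and 2062 in the control arrays. Probe set 1450017_at read 1926, 1892 and 1816 in the EBF arrays, against 2157, 2154 and 1989 in the control arrays. At all 3 probe sets every EBF array was below every control array. The log2 differences were -0.14 ± 0.07 (SE; limma adjusted p = 0.317), -0.24 ± 0.08 (adjusted p = 0.172) and -0.16 ± 0.07 (adjusted p = 0.275), so none passed. EBF was therefore also below control in 3 of 3 same-numbered pairs at each, which held for 17.3% of all probe sets. The pairs follow from the lack of overlap and add nothing to it. The 3 probe sets were designed on the same transcript sequence, per the platform's table, and are not independent readings of the gene.

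Mdm2, the ubiquitin ligase that binds p53 and marks it for destruction, gave no common direction. Its probe set 1423605_a_at read 2688, 2411 and 2209 in the EBF arrays, against 2601, 2689 and 2265 in the control arrays. Probe set 1427718_a_at read 2410, 2061 and 1418 in the EBF arrays, against 1735, 1748 and 1572 in the control arrays. The dimmer probe set 1457929_at read 329, 316 and 306 in the EBF arrays, against 273, 332 and 257 in the control arrays. The groups overlapped at all 3, and at 1427718_a_at EBF 1 and EBF 2 lay above all controls while EBF 3 lay below them. The log2 differences were -0.05 ± 0.10 (adjusted p = 0.822), 0.19 ± 0.17 (adjusted p = 0.578) and 0.13 ± 0.10 (adjusted p = 0.473). Without EBF 3 the value of 1427718_a_at became 0.40 (limma adjusted p = 0.0406), where 9.52% of all probe sets were called, while without EBF 1 it became 0.023 (adjusted p = 0.970).

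Zmat3, an RNA-binding zinc finger protein induced by p53, read 357, 259 and 314 in the EBF arrays, against 354, 376 and 391 in the control arrays. EBF 1 lay above control 1 and the other EBF arrays below all controls. The difference was -0.26 ± 0.11 on the log2 scale and did not pass (limma adjusted p = 0.252), and without EBF 2 it was -0.14.

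**Figure D2:**
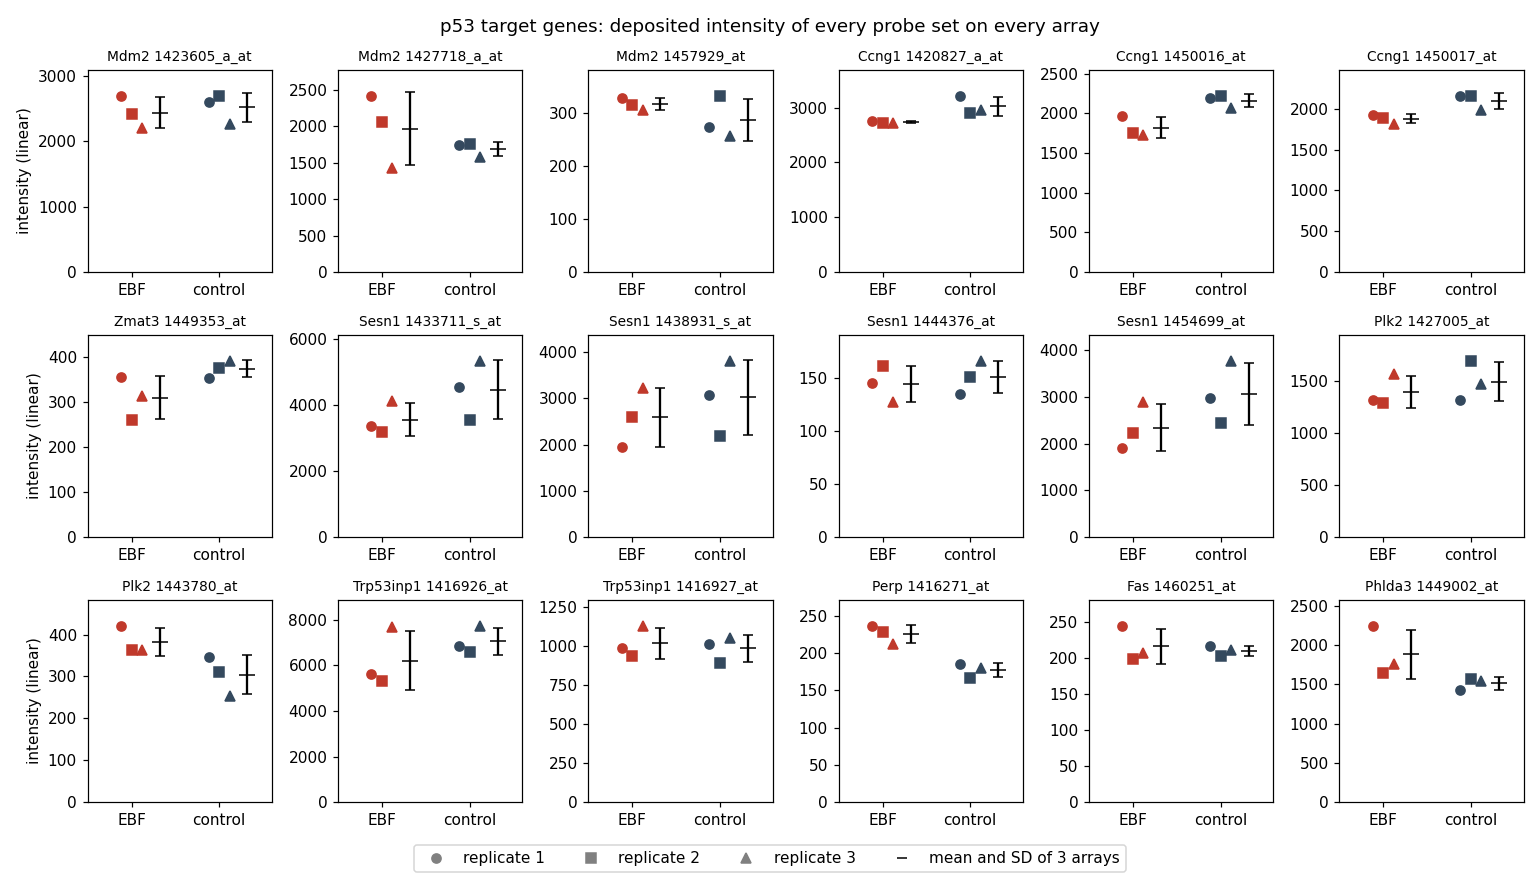
Deposited intensity (linear axis from 0) of every p53 target probe set on every array, with EBF arrays in red at the left and control arrays in dark blue at the right of each panel. Marker shapes give the replicate number, and the bars beside the points give the mean and SD of 3 arrays. The 3 Ccng1 panels show EBF below control without overlap, and in the 3 brighter Sesn1 panels replicate 3 is the highest point of each group.

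Of the genes that restrain growth, Sesn1 had the largest difference and also the widest spread. Sesn1 encodes sestrin 1, a stress-induced protein that restrains mTORC1 signalling. Its probe set 1454699_at read 1898, 2234 and 2886 in EBF 1 to 3, against 2970, 2443 and 3765 in control 1 to 3. Probe set 1433711_s_at read 3375, 3191 and 4120 in the EBF arrays, against 4535, 3539 and 5333 in the control arrays. Probe set 1438931_s_at read 1943, 2588 and 3221 in the EBF arrays, against 3067, 2188 and 3800 in the control arrays. At all 3 the groups overlapped, with control 3 the highest array. The log2 differences were -0.38 ± 0.18 (limma adjusted p = 0.300), -0.31 ± 0.15 (adjusted p = 0.309) and -0.22 ± 0.22 (adjusted p = 0.625). Taken by replicate number, 1454699_at differed by -0.64, -0.13 and -0.38 in pairs 1 to 3 and 1433711_s_at by -0.42, -0.15 and -0.37. Both were therefore lower in 3 of 3 pairs, and 1438931_s_at in 2 of 3, being 0.24 higher in pair 2. With the replicate block the first pair of probe sets stood just short of the threshold (adjusted p = 0.0503 and 0.0522). Without EBF 3 and control 2 together both were called lower (log2 -0.69 and -0.58; adjusted p = 0.0476 and 0.0401), where 4.19% of all probe sets were called. That pair of arrays was chosen with earlier results of these data known. Leaving out control 3 alone brought the differences of 1454699_at and 1433711_s_at to -0.22 and -0.18 (adjusted p = 0.638 and 0.655), and leaving out control 2 alone brought 1433711_s_at to -0.47 (0.273). Without EBF 1 that of 1454699_at was -0.24 (0.641). At 1438931_s_at the difference ran from -0.43 without control 2 to -0.03 without EBF 1 or control 3. Of these, 1454699_at and 1433711_s_at come from the same design sequence. The fourth, 1444376_at, was dim at 145, 161 and 127 in the EBF arrays, against 135, 151 and 166 in the control arrays (log2 -0.05 ± 0.10).

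The probe sets of Plk2, a polo-like kinase gene induced by p53, differed from each other. Probe set 1427005_at read 1319, 1290 and 1566 in the EBF arrays, against 1314, 1691 and 1472 in the control arrays (log2 -0.10 ± 0.11; limma adjusted p = 0.672). The dimmer probe set 1443780_at read 420, 363 and 364 in the EBF arrays, against 348, 311 and 255 in the control arrays. Here every EBF array was above every control array, with a log2 difference of 0.31 ± 0.11 that did not pass (adjusted p = 0.206, blocked 0.0541) and was 0.20 without control 3. The intervals of the probe sets were -0.35 to 0.16 and 0.05 to 0.56, and whether the 2 differences differ from each other was not tested.

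Among the genes of the death arm, Perp came nearest to a call. Perp encodes a membrane protein that takes part in p53-driven apoptosis and in cell junctions. It read 236, 228 and 212 in EBF 1 to 3, against 185, 166 and 180 in control 1 to 3. Every EBF array was above every control array, at levels under the highest Bacillus control. The means were 225 ± 12.2 in EBF arrays and 177 ± 9.80 in control arrays (SD, n = 3 each), a log2 difference of 0.30 ± 0.07 with a limma adjusted p of 0.119. In the blocked fit its adjusted p was 0.0497, and without EBF 3 it was 0.0386, where 9.52% of all probe sets were called. Without any other single array the adjusted p ran from 0.187 (control 1) to 0.345 (EBF 2). Without EBF 3 and control 2 together it was 0.0841. EBF was above control in 3 of 3 pairs (0.30, 0.39 and 0.20), which held for 29.5% of all probe sets. Their direction follows from the lack of overlap and adds nothing to it.

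Phlda3 encodes a small protein that blocks membrane binding of the survival kinase Akt. Its probe set read 2238, 1648 and 1752 in the EBF arrays, against 1423, 1568 and 1541 in the control arrays. The groups did not overlap, but EBF 1 lay well above all other arrays, and pair 1 differed by 0.64 against 0.07 and 0.18 in pairs 2 and 3. The log2 difference of 0.30 ± 0.12 did not pass (limma adjusted p = 0.222), nor with the block (0.126), and it was 0.17 without EBF 1.

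At Fas, the gene of a death receptor, no difference was detectable. It read 244, 199 and 207 in the EBF arrays, against 217, 203 and 211 in the control arrays. The log2 difference was 0.03 ± 0.09 with an interval of -0.16 to 0.23. The probe set is dim, and this interval holds only for the intensity as measured, background included.

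Trp53inp1 encodes a nuclear protein that promotes the apoptotic activity of p53 and autophagy. Its probe set 1416926_at read 5623, 5321 and 7667 in the EBF arrays, against 6862, 6583 and 7705 in the control arrays. EBF 1 and EBF 2 lay below all controls, while EBF 3 lay close to control 3. The log2 difference was -0.20 ± 0.14 (limma adjusted p = 0.457). It was -0.36 without EBF 3 (adjusted p = 0.0468), where 9.52% of all probe sets were called, and -0.10 without EBF 2 (adjusted p = 0.808). The other probe set, 1416927_at, read 985, 936 and 1125 in the EBF arrays, against 1013, 888 and 1050 in the control arrays (log2 0.04 ± 0.10; adjusted p = 0.834), so the call without EBF 3 was not shared between the probe sets of the gene.

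At several p53 targets the same replicate number was the highest, or the lowest, array of both groups, and this held for each of the replicates. The pattern was chosen after the values were seen and is given as a description. Probe sets of the same gene are not independent in these counts. Replicate 1 was highest in both groups at 5 of the 18 probe sets, of Ccng1, Plk2, Perp and Fas, and lowest in both at 0. Over all probe sets it was highest in both at 14.8% and lowest in both at 15.6%. Replicate 2 was lowest in both groups at 5 of the 18, of Ccng1, Sesn1, Trp53inp1 and Fas, and highest in both at 0. Over all probe sets it was lowest in both at 7% and highest in both at 13.1%. Replicate 3 was highest in both groups at 5 of the 18, the 3 brighter ones of Sesn1 and both of Trp53inp1, and lowest in both at 5 others, all 3 of Mdm2 and 2 of Ccng1. Over all probe sets, replicate 3 was highest in both groups at 11.8% and lowest in both at 21.4%. At Sesn1 1454699_at, EBF 3 exceeded the mean of EBF 1 and 2 by 0.48 on the log2 scale and control 3 exceeded the mean of control 1 and 2 by 0.48. At Sesn1 1438931_s_at these differences were 0.52 and 0.55. These values exceed in size the differences of -0.38 and -0.22 between EBF and control cells at the same probe sets, a comparison that was not tested. At Mdm2 1423605_a_at, EBF 3 differed from EBF 1 and 2 by -0.20 and control 3 from control 1 and 2 by -0.22. The labels do not say what the replicate numbers stand for.

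**Figure D3:**
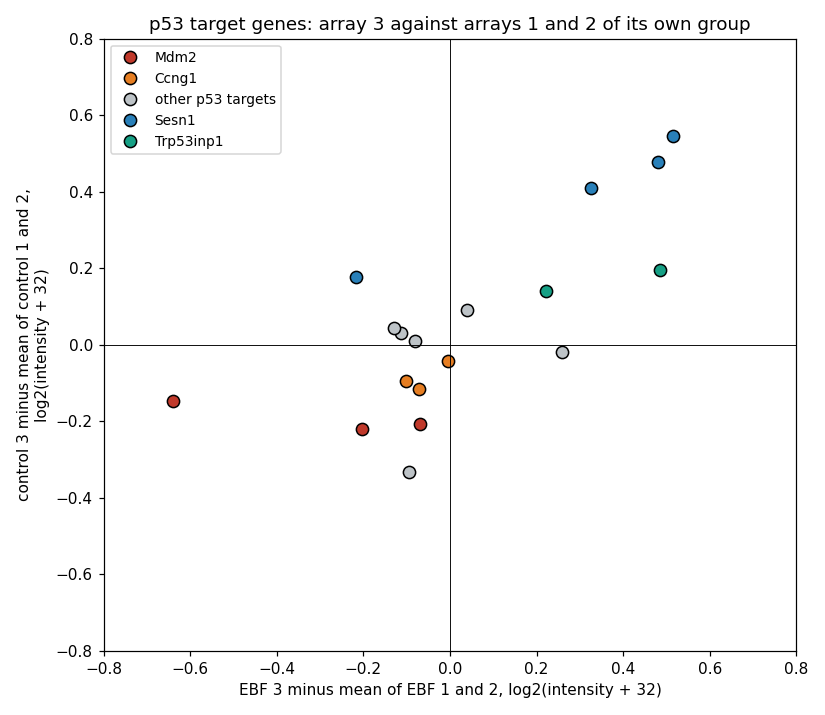
Each point is a p53 target probe set, with array 3 minus the mean of arrays 1 and 2, as log2(intensity + 32), in the EBF group on the horizontal axis and in the control group on the vertical axis. The 3 brighter Sesn1 probe sets and both Trp53inp1 probe sets lie at the upper right, and the 3 Mdm2 probe sets lie at the lower left.

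The 4 further lists of p53 pathway genes held 67 measured genes with 150 probe sets. They were written from textbook knowledge with earlier results of these data known, so their shares of calls are a description only. Of these, 5 probe sets rose and 2 fell by limma, which is 4.67% against 0.875% of all probe sets, and 4 of the 7 belong to 1 gene. In the list of p53 regulators and kinases 4 of 60 probe sets rose and 0 fell, with a list median of 0.07. All 4 were of Hipk2, a nuclear kinase that phosphorylates p53. The one with the smallest p, 1428433_at, read 2177, 2135 and 2328 in EBF arrays, against 888, 782 and 964 in control arrays (log2 1.31 ± 0.09; adjusted p = 0.00118), and the other 3 rose by 0.995, 1.16 and 1.40. The remaining 4 Hipk2 probe sets did not pass, with log2 differences of 0.10, 0.11, 0.33 and 0.41. With the replicate block, which called 7.28% of all probe sets, the last of these, 1429566_a_at, was called. Its adjusted p was 0.202, blocked 0.0197, and it was higher in 3 of 3 pairs. Among those 4 that rose, 1428433_at and 1456022_at kept the call without any single array. The call of 1424863_a_at was lost without EBF 2 or control 2, and that of 1425983_x_at without EBF 2, control 1 or control 2. Without each of these arrays the number of calls over all probe sets also fell.

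In the list of apoptosis targets 1 of 32 probe sets rose and 1 fell. The one that fell was Pmaip1, which encodes the BH3-only death protein Noxa, at 1302, 1429 and 1292 in EBF arrays, against 2330, 3326 and 2256 in control arrays. Every EBF array was below every control array (log2 -0.94 ± 0.14; limma adjusted p = 0.0274). Leaving out EBF 1, EBF 2 or control 1 ended the call, with adjusted p-values of up to 0.109. Each of these omissions also lowered the calls over all probe sets. Without EBF 1 these were 55 higher and 64 lower, against 155 and 239 on all arrays. The one that rose was a probe set of Tnfrsf9, a costimulatory receptor gene of lymphocytes known as 4-1BB, at 394, 397 and 321 in EBF arrays, against 232, 240 and 178 in control arrays (log2 0.70 ± 0.12; adjusted p = 0.0442). It was called without EBF 3 but lost without any other single array (highest adjusted p 0.198) and with a pseudocount of 8 (0.0609). Calls over all probe sets also fell without each of those other arrays. The gene's other probe sets differed by -0.30 and 0.19 without passing. Bbc3, the Puma gene and another BH3-only target, had a log2 difference of 0.27 ± 0.15 (adjusted p = 0.375), chosen for mention after its values were seen.

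In the list of repair and metabolism targets 1 of 45 probe sets fell and 0 rose. It was Xpc, which recognises damaged DNA in nucleotide excision repair, at 1337, 1601 and 1470 in EBF arrays, against 2177, 2354 and 2240 in control arrays. The groups did not overlap (log2 -0.61 ± 0.08, limma adjusted p = 0.0187). The call was lost without any single array other than EBF 3 (highest adjusted p 0.106), while the log2 ran from -0.67 to -0.55 without 1 array. Calls over all probe sets also fell without each of those other arrays. Without EBF 2 they were 36 higher and 43 lower, against 155 and 239 on all arrays. In the list of arrest targets 0 of 13 probe sets passed, with 4 at an unadjusted p under 0.05. The genes with the smallest p were Gtse1, a cell cycle protein that binds p53 (log2 0.29 ± 0.07; adjusted p = 0.0974, blocked 0.0459), and Ckap2, a spindle protein (0.26 ± 0.08; adjusted p = 0.147). Cdkn1a, which encodes the cell cycle inhibitor p21, was added after its values were seen. Its probe set 1421679_a_at read 2935, 2774 and 2094 in EBF arrays, against 3813, 4419 and 2765 in control arrays. EBF 1 and EBF 2 lay just above control 3, so the groups overlapped, and array 3 was the lowest of each group. The log2 difference was -0.48 ± 0.18 (adjusted p = 0.216). A call was gained with the replicate block (adjusted p = 0.0135, lower in 3 of 3 pairs), where 7.28% of all probe sets were called. Without EBF 3 and control 2 together the difference was -0.19 (adjusted p = 0.478). Its other probe set differed by -0.21 ± 0.14 (adjusted p = 0.457, blocked 0.164).

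**Figure D4:**
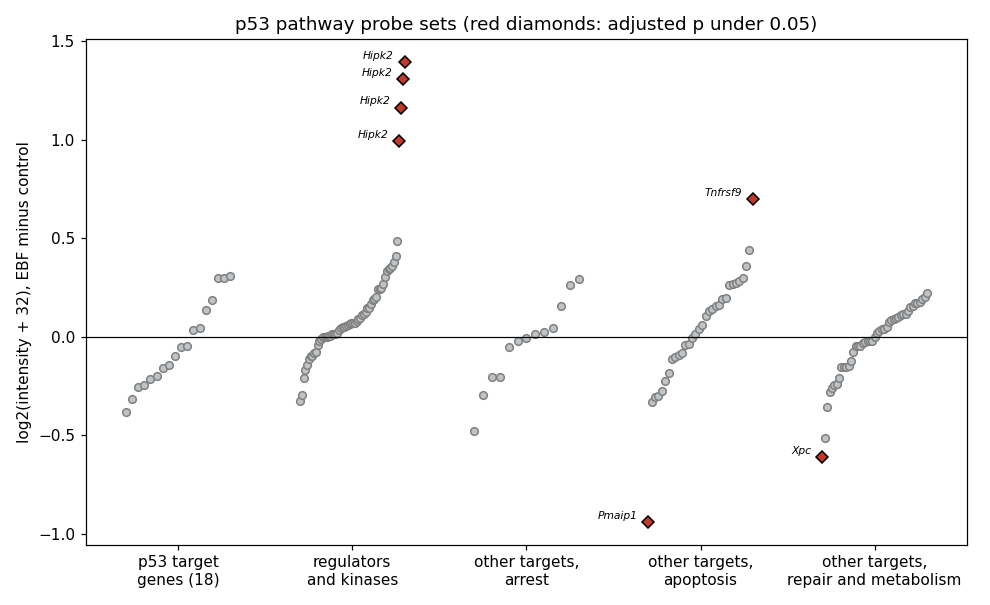
Difference between EBF and control arrays, as log2(intensity + 32), for the 18 probe sets of the p53 target genes at the left and for 4 further lists of p53 pathway genes, each sorted from low to high. Red diamonds mark an adjusted p under 0.05, which 4 Hipk2 probe sets and 1 each of Tnfrsf9, Pmaip1 and Xpc reached.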

How the data were processed

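Biotin-labelled cRNA from 6 microg total RNA was hybridised to Affymetrix arrays, 3 per group, per the labels' protocols. The design text names a rat array, but the platform's gene table is for a mouse array and the organism label is mouse. The authors deposited 1 linear intensity per probe set and array. The software and normalization behind these values are not stated in the sources used here; no detection calls were used and no further scaling was applied. Precision is limited by the number of arrays.

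The analysis scale was log2(intensity + 32), which understates the change of dim genes. After 64 Affymetrix controls were left out, 45037 probe sets entered a two-sided limma fit (lmFit and eBayes; limma 3.58.1, R 4.3.3) with group alone in the model, Benjamini-Hochberg adjustment over all of them and a threshold of 0.05. Errors of log2 differences are limma's standard errors. Code was tested on simulated data with independent noise on each array, so without the deviations that same-numbered arrays share here. Of the probe sets, 34945 had 1 gene symbol, 932 several and 9160 none listed. The 4 further lists had 73 entries, of which 2 were not matched (Bax and Gls2) and 4 repeated another name; they were described by counts and medians, with no set test.

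The members, lists and naming rule were chosen with earlier results of these data known. The rule named all members, every called gene of the 4 lists and, where a list had none, the 2 genes with the smallest p. Its search for genes that vary like Trp53 was not run, since Trp53 is not analysed here. Between arrays of the same number, deviations from the mean of the group correlated by 0.316, 0.251 and 0.505 over 22518 probe sets. All were above 0.1, so the replicate numbers were taken to pair the arrays, which is read from the data and not from the labels. The main fit, with group alone, leaves this pairing out, and only the replicate block uses it. Alternatives were the replicate block, pseudocounts of 8 and 128, quantile and median scaling, a filter on dim probe sets, eBayes with a trend, and leaving out arrays.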

Additional observations from a re-analysis of the deposited data

How the results depend on the processing

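The 18 p53 target probe sets were refitted under 14 alternatives. Of the 252 values, 235 kept their direction and their side of the threshold, 6 gained a call and 11 turned direction at values near 0. The count called higher, 0, became 1 with the replicate block and ran from 0 to 2 without 1 replicate; the count called lower, 0, ran from 0 to 1 without 1 replicate and was 2 without EBF 3 and control 2 together. The values that turned belong to 4 probe sets, given as log2 with the range without 1 replicate. They were Mdm2 1423605_a_at (-0.12 to 0.019; 0.068 without EBF 3 and control 2), Sesn1 1444376_at (-0.12 to 0.022; 0.025), Trp53inp1 1416927_at (-0.030 to 0.099; -0.099) and Fas (-0.046 to 0.085; -0.0077 with quantile normalization). Outside the 18, Cdkn1a 1424638_at turned to 0.0047 without EBF 3 and control 2. Over all probe sets, 155 were called higher and 239 lower. The replicate block gave 2199 and 1081, pseudocount 8 gave 103 higher (Tnfrsf9 1428034_a_at then had an adjusted p of 0.0609), the trend 268 higher, and leaving out EBF 3 and control 2 gave 1386 and 501. Without 1 replicate the counts ran from 32 (control 2) to 3045 (EBF 3) higher and from 43 (EBF 2) to 1242 (EBF 3) lower. In the 4 further lists, 5 higher and 2 lower became 13 and 5 with the block and 8 and 4 without EBF 3 and control 2, and ran from 2 to 13 and from 0 to 4 without 1 replicate. Over all probe sets the block, or leaving out EBF 3, gave more calls, and leaving out any other single array gave fewer; the cause was not tested. Dim probe sets carry an unknown share of background.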

Other observations

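With the replicate number as a block, further p53 pathway genes passed in limma, named here after their values were seen. Chek1, the checkpoint kinase gene, was higher at 3 of its 5 probe sets (log2 0.35, 0.38 and 0.49; blocked adjusted p = 0.0436, 0.0361 and 0.0137), and Ppm1d, a phosphatase that dampens p53 signalling, at 1 of 2 (0.35; 0.0381). Hipk2 was also higher at 1429566_a_at (0.41; 0.0197). Among apoptosis genes Pidd1 was higher (0.36; 0.0274) and Siva1 at 1 of 4 probe sets (0.30; 0.0436). Ddit4, a stress-induced inhibitor of mTORC1, was lower (-0.51; 0.0343), as was Cd82 at 1 of 2 probe sets (-0.36; 0.0237). The block called 7.28% of all probe sets and 12% of the 150 in these lists, which were written with earlier results of these data known.

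Replicate 3 was also the lowest array of both groups for both Cdkn1a probe sets. At 1421679_a_at EBF 3 differed from EBF 1 and 2 by -0.44 and control 3 from control 1 and 2 by -0.56 on the log2 scale. At the Pmaip1 probe set the same differences were -0.08 and -0.30. Mdm2, Cdkn1a and Pmaip1 were thus at their lowest in replicate 3, where the brighter Sesn1 probe sets and Trp53inp1 were at their highest. These genes were picked after their values were seen. Over all probe sets, replicate 3 was lowest in both groups at 21.4% and highest in both at 11.8%. At Pmaip1 EBF 3 (1292) was close to EBF 1 (1302). Not all listed targets followed: at both Btg2 probe sets replicate 3 was neither lowest nor highest in both groups.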
